A study of Homo sapiens with 6 samples.

Results

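The genes described here are 6 metallothionein genes (MT1E, MT1F, MT1G, MT1M, MT1X and MT2A), the zinc-sensing transcription factor gene MTF1, and the zinc transporter genes SLC30A1 and SLC39A10. These 9 genes were picked by symbol from the 53826 entries that each library lists, and none of the symbols was listed more than once. RNA-seq covered PK-1 and Panc-1, a pair of established lines grown from human pancreatic ductal adenocarcinoma (PDAC). In each line 1 culture served as control, and 1 each received RARγi-1 (LY2955303) or RARγi-2 (MM11253), antagonists of retinoic acid receptor γ, for 24 h, so that 6 libraries were made. No further genotype, transgene or treatment is given for any group, and the lines were grown in RPMI-1640 with serum. The doses used for the RNA-seq and the vehicle of the controls are not stated in the sources used here. The titles, which name RARγi-2, decided the group of 2 libraries whose treatment entry instead names RARγi-1.

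Values are given in TPM, the abundance of a transcript scaled to its length and to the same total in every library. Every value under 1 TPM stands at 1 TPM in the files, called the floor here, and between 13149 and 13652 entries per library lay above it. A fold change divides TPM + 1 after treatment by TPM + 1 in the same line's control, on the log2 scale, which understates the change of genes with low values. TPM keeps no read number, so the depth is unknown. Without replicates, no difference could be set against replicate error and no test was run. In its place stands a robust measure of how far the treated libraries of a line lie apart, which also holds real differences between the inhibitors. As the spread of a fold change it came to 0.41 for PK-1 and 0.32 for Panc-1 on the log2 scale. As the spread per library it came to 0.29 and 0.23. Both comparisons within a line share the control library. Rescaling by median ratios would lower fold changes under RARγi-1 by 0.13 (log2) in PK-1 and by 0.10 in Panc-1, and would change the others by less.

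As a check of the labels, KRT8, KRT18, KRT19, EPCAM and CDH1, markers of epithelial cells, ranged from 170.1 to 6408 TPM in the PK-1 libraries. Their sum was 16835 TPM in the control, 11209.8 TPM under RARγi-1 and 11657 TPM under RARγi-2. CDH1 ran against the sum, at 170.1 TPM, 270 TPM and 385 TPM in the same order, while the other 4 were lower than control. In Panc-1 CDH1 was at the floor and the other 4 were above 5 TPM in every library. The summed level in Panc-1 was 8414 TPM in the control, 1782 TPM under RARγi-1 and 1483 TPM under RARγi-2. KRT8, KRT18 and KRT19 were lower there with both inhibitors. EPCAM was 13.4 TPM in the Panc-1 control, 19.4 TPM under RARγi-1 and 9.18 TPM under RARγi-2. Of 3 mesenchymal markers, only the intermediate filament gene VIM was above the floor in PK-1, and all 3 were in Panc-1. VIM measured 41.7 TPM in the PK-1 control, 92.1 TPM under RARγi-1 and 140.0 TPM under RARγi-2. Its Panc-1 levels were 6291 TPM, 4049 TPM and 3962 TPM in the same order. VIM was thus higher than control in PK-1 and lower in Panc-1. Of the other mesenchymal markers, CDH2 was also lower in Panc-1, at 6.36 TPM, 3.55 TPM and 2.63 TPM. ZEB1 was higher there, at 8.65 TPM, 14.5 TPM and 10.9 TPM, the last within the fold change spread of its control. The summed mesenchymal level was 43.7 TPM, 94.1 TPM and 142 TPM in PK-1, and 6306 TPM, 4067 TPM and 3975 TPM in Panc-1. VIM made up nearly all of these sums, which count a marker at the floor as 1 TPM. The leukocyte, endothelial and fibroblast markers were at or barely above the floor in every library. Of 5 acinar and islet markers only the trypsinogen gene PRSS1 was above the floor, at 1.06 TPM in the PK-1 control, 11.1 TPM under RARγi-1 and 21.2 TPM under RARγi-2. In bulk RNA, fewer cells of a kind and less RNA per cell cannot be told apart. The part of these shifts in the results below was not tested.

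Metallothioneins are small, cysteine-rich proteins that bind zinc and copper in the cytosol and also bind toxic metals such as cadmium. When free zinc rises, the transcription factor MTF1 binds metal response elements before the metallothionein genes and before SLC30A1, whose product moves zinc out of the cell. SLC39A10 encodes an importer that brings zinc in and whose expression is known to fall when zinc is high. Metallothionein genes also respond to oxidative stress and to glucocorticoids.

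Promoter sequences bear on these genes because the metal response element is the site that MTF1 reads. RefSeq start sites (GRCh38.p14) matched 5 of the 9 genes. The element's core was searched as TGCGCNC and TGCACNC on both strands in the 250 bases before each start, and no matches overlapped each other in the windows shown. Of 35116 promoters searched in the same way, 24.8% held at least 1 match and 0.208% held at least 4. The window of MT2A held 7 matches, that of MT1X 4 and that of SLC30A1 1, while those of MTF1 and of both SLC39A10 starts held none. Bases after the starts and further upstream were not searched, so a window without matches does not mean a gene without them. A match is a match of letters and not a shown binding site. The windows with matches are given 5′ to 3′ on the gene's own strand, with the matches in capitals, from chr16:56608334-56608583 (plus strand) for MT2A, chr16:56682220-56682469 (plus strand) for MT1X and chr1:211579162-211579411 (minus strand) for SLC30A1.
MT2A: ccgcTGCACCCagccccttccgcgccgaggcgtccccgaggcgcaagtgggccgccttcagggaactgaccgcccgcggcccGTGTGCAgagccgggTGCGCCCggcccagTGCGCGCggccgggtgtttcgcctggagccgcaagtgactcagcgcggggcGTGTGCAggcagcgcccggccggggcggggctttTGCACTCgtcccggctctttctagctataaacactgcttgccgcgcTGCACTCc
MT1X: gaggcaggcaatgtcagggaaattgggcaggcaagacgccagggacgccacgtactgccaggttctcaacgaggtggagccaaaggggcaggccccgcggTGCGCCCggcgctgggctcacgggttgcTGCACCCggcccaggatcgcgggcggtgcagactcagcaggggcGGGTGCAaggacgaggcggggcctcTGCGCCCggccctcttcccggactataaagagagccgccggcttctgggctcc
SLC30A1: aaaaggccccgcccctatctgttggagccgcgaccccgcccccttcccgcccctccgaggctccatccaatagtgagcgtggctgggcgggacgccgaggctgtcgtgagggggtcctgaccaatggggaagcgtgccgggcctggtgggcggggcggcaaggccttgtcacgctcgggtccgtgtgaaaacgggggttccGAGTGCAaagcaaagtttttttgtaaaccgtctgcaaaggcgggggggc

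Of the 9 genes, PK-1 had 6 above the floor and Panc-1 had 8. In PK-1, MT1F and MT1X were more than 2-fold higher than control with RARγi-1, against 9.25% of all 13965 entries above the floor in either library. With RARγi-2 in PK-1, MT1F, MT1X, MT2A and SLC30A1 were more than 2-fold higher, against 12.1% of 14028 entries. SLC39A10 was more than 2-fold lower in both PK-1 comparisons, as were 4.96% of all entries with RARγi-1 and 12.6% with RARγi-2. In Panc-1 with RARγi-1, MT1F was the only member more than 2-fold higher, against 7.4% of 14004 entries, and MT2A, MT1E, MT1M and SLC39A10 were more than 2-fold lower, against 6.03%. With RARγi-2 in Panc-1, MT1F, MT1X and SLC30A1 were more than 2-fold higher, against 8.5% of 13921 entries, and SLC39A10 was more than 2-fold lower, against 11.2%.

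The median log2 fold change of the metallothionein members above the floor was 1.27 under RARγi-1 and 2.30 under RARγi-2 in PK-1, over 3 genes. In Panc-1 it was -1.18 and 0.72, respectively, over 5 genes. The median over all entries was 0.15, 0.03, 0.09 and -0.03 in the same order. The medians of the lines cover unlike genes, since MT1E and MT1M were at the floor in PK-1. MT1E gave the -1.18 and MT1M the 0.72. Among the 3 genes above the floor in both lines, the middle Panc-1 values were those of MT1X, at 0.98 and 1.76.

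**Figure D1:**
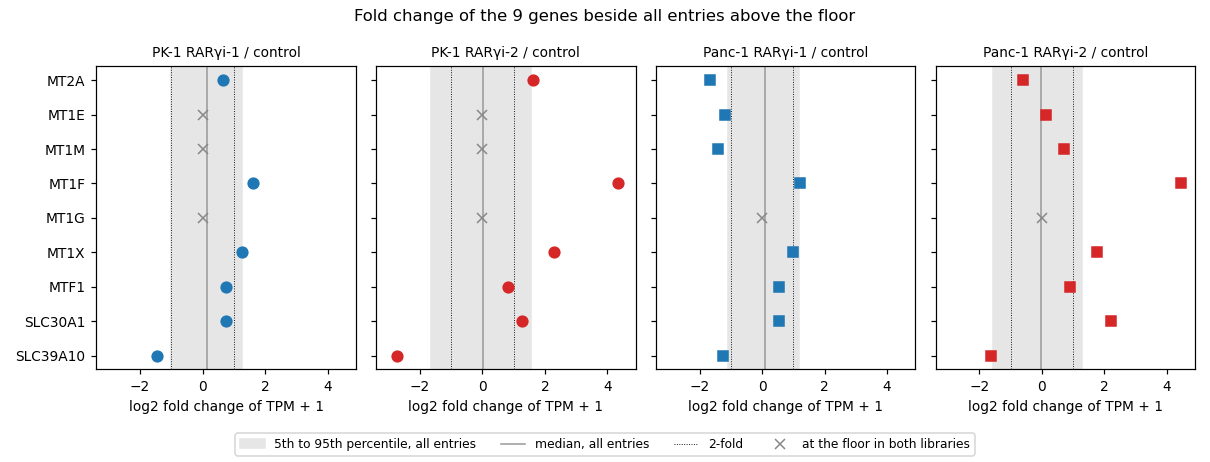
Log2 fold change of (TPM + 1) of the 9 genes in each treated library over the control of its line, 1 panel per comparison. The grey band runs from the 5th to the 95th percentile of all entries above the floor in either library, the grey line is their median, the dotted lines mark 2-fold, and crosses are genes at the floor in both libraries. MT1F lies past the upper edge of the band and SLC39A10 past its lower edge in every panel, while MT2A lies on opposite sides of 0 in the PK-1 and Panc-1 panels.

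In the controls, the order of levels by TPM was headed by MT2A in both lines. In the PK-1 control it was followed by MT1X, SLC30A1, SLC39A10, MT1F and MTF1. SLC30A1 and SLC39A10, and likewise MT1F and MTF1, differed from each other by less than the fold change spread there. In the Panc-1 control the order after MT2A was MT1E, MT1X, MT1M, SLC39A10, MTF1, SLC30A1 and MT1F, in which MTF1 and SLC30A1 differed by less than this spread. In the RARγi-2 library of Panc-1, MT1X and MT1E differed by 0.02 (log2 of TPM), and so had no order there.

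MT2A (Entrez gene 4502; chromosome 16, 56608584 to 56609497 in GRCh38.p14) encodes the most widely expressed human metallothionein. Its level in PK-1 was 2166 TPM in the control, 3437 TPM under RARγi-1 and 6727 TPM under RARγi-2. In Panc-1 it was 3359.9 TPM in the control, 1068 TPM under RARγi-1 and 2192 TPM under RARγi-2. Both treated PK-1 libraries were thus above their control and both treated Panc-1 libraries below theirs. The log2 fold changes were 0.67 and 1.63 for PK-1 against -1.65 and -0.62 for Panc-1, each past the fold change spread of the line. The changes in Panc-1 lay at the percentiles 1.88 and 20.5 of all entries.

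MT1X (4501; chromosome 16, 56682470 to 56684196) was, like MT2A, above the floor in every library. It measured 237 TPM in the PK-1 control, 571 TPM under RARγi-1 and 1170.0 TPM under RARγi-2. In Panc-1 it measured 97.4 TPM in the control, 193 TPM under RARγi-1 and 333 TPM under RARγi-2. Unlike MT2A, it was higher in all 4 treated libraries, and the RARγi-2 library of each line was the highest. The log2 fold changes were 1.27 and 2.30 for PK-1 against 0.98 and 1.76 for Panc-1, so that only RARγi-1 in Panc-1 stayed short of 2-fold. The promoters of MT2A and MT1X shown above both hold several matches to the metal response element.

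MT1F (4494; chromosome 16, 56657959 to 56659303) had the highest log2 fold change of the 9 genes in every comparison. In PK-1 its level was 9.84 TPM in the control, 32.1 TPM under RARγi-1 and 220 TPM under RARγi-2. In Panc-1 its level was 3.47 TPM in the control, 9.30 TPM under RARγi-1 and 96.9 TPM under RARγi-2. It was thus among the lowest members in both controls, and with RARγi-2 it was 22.3 times its control TPM in PK-1 and 27.9 times in Panc-1. The log2 fold changes were 1.61 and 4.35 for PK-1 against 1.20 and 4.45 for Panc-1. With RARγi-2 these lay at the percentiles 99.86 and 99.93 of all entries, and with RARγi-1 at 97.4 and 95.4. With a pseudocount of 3 TPM the value for RARγi-1 in Panc-1 was 0.93, short of 2-fold.

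MT1E (4493) and MT1M (4499) were at the floor in all PK-1 libraries and expressed in Panc-1. MT1E measured 298 TPM in the Panc-1 control, 131 TPM under RARγi-1 and 328 TPM under RARγi-2. Its log2 fold changes were -1.18 and 0.14, the latter within the fold change spread. MT1M measured 20.6 TPM in the Panc-1 control, 7.08 TPM under RARγi-1 and 34.5 TPM under RARγi-2. Its log2 fold changes were -1.42 and 0.72. Both genes were lowest in the RARγi-1 library and highest in the RARγi-2 library. MT1G (4495) was at the floor in all 6 libraries, so no fold change is given.

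**Figure D2:**
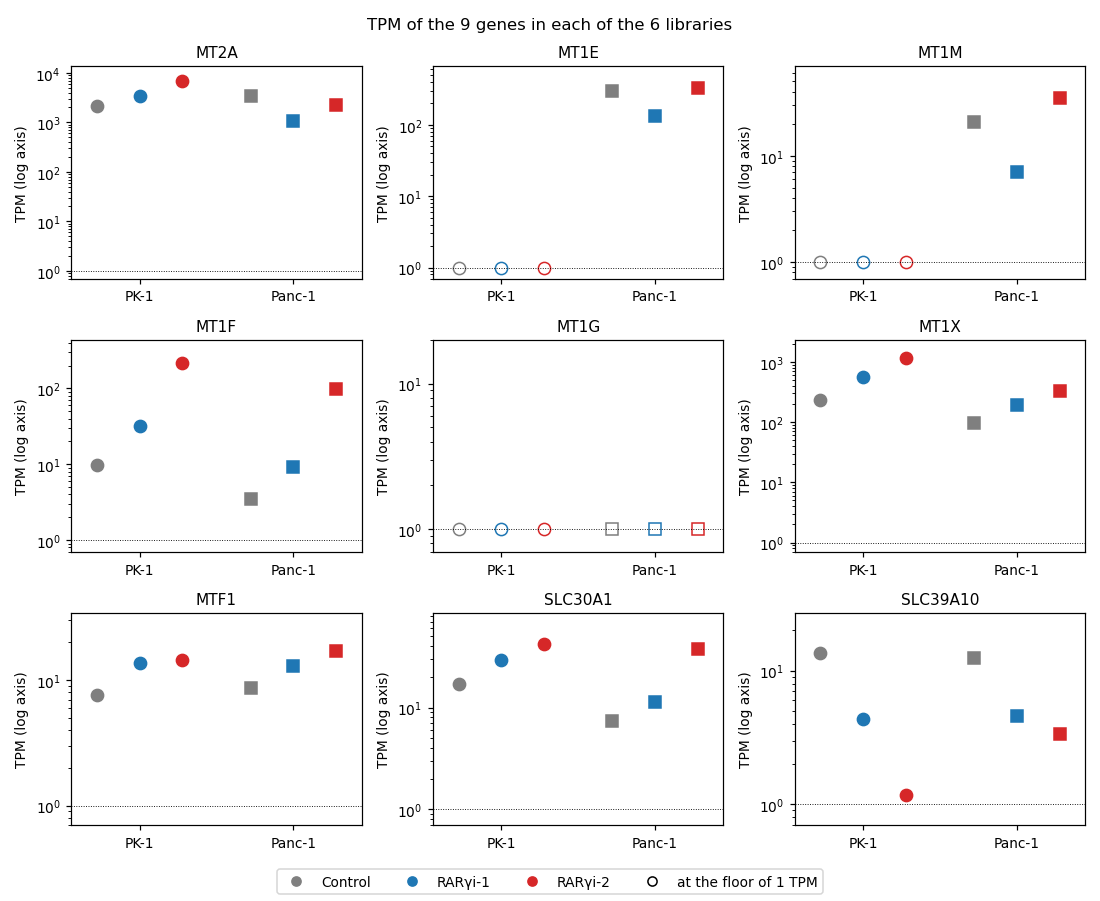
TPM of each of the 9 genes in the 6 libraries, on a log axis; circles are PK-1, squares are Panc-1, grey is the control, blue RARγi-1 and red RARγi-2. Open symbols lie at the floor of 1 TPM, where all 6 MT1G values and the PK-1 values of MT1E and MT1M sit. MT1F and MT1X climb from control to RARγi-1 to RARγi-2 in both lines and SLC39A10 descends, while MT2A is lowest in the control in PK-1 and lowest with RARγi-1 in Panc-1.

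The human metallothionein genes lie side by side on chromosome 16, in a cluster of 16 listed entries that spans 119 kb (56565073 to 56684196), pseudogenes included. In PK-1, 3 of the 16 were above the floor, and in Panc-1 8 were. Beside the members, these were MT1A, MT1H and MT1L, an MT1 copy classed as a transcribed pseudogene. The other 8, which include MT3, a form known from brain, and MT4, a form known from squamous epithelium, were at the floor in every library, as was MT1HL1 on chromosome 1.

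MT1L, next to MT2A, measured 703 TPM in the Panc-1 control, 161 TPM under RARγi-1 and 217 TPM under RARγi-2, which gave log2 fold changes of -2.12 and -1.69. MT1A measured 131 TPM in the Panc-1 control, 19.6 TPM under RARγi-1 and 17.5 TPM under RARγi-2, which gave log2 fold changes of -2.68 and -2.84. MT1A was thus lower by a like amount with both inhibitors, whereas MT1E and MT1M, between it and MT1L in the cluster, were lower only with RARγi-1. MT1H was at the floor in the other libraries and measured 2.99 TPM in the RARγi-2 library of Panc-1.

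Ordered along the chromosome, the Panc-1 entries from MT2A to MT1A (MT2A, MT1L, MT1E, MT1M and MT1A) were all lower than control with RARγi-1, and those from MT1F to MT1X that were above the floor (MT1F and MT1X) were higher. This division was seen in the values and was not tested. Summed over the 5 entries at the MT2A side, the level was 4513 TPM in the Panc-1 control, 1387 TPM under RARγi-1 and 2789 TPM under RARγi-2. Summed over MT1F, MT1H and MT1X, it was 101 TPM, 202 TPM and 433 TPM in the same order. In Panc-1, the entries at the MT2A side thus came to 0.307 and 0.618 times the control, and those at the MT1X side to 2.004 and 4.29 times. With RARγi-2 the division did not hold gene by gene. There MT1M was higher than control, at 0.72 (log2), and MT1E was within the fold change spread, at 0.14. MT2A, at 2192 TPM, made up most of the 2789 TPM. In PK-1, where MT2A was the only entry of the MT2A side above the floor, both sides were higher than control, at 1.59 and 3.11 times for MT2A and at 2.45 and 5.64 times for MT1F and MT1X together.

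**Figure D3:**
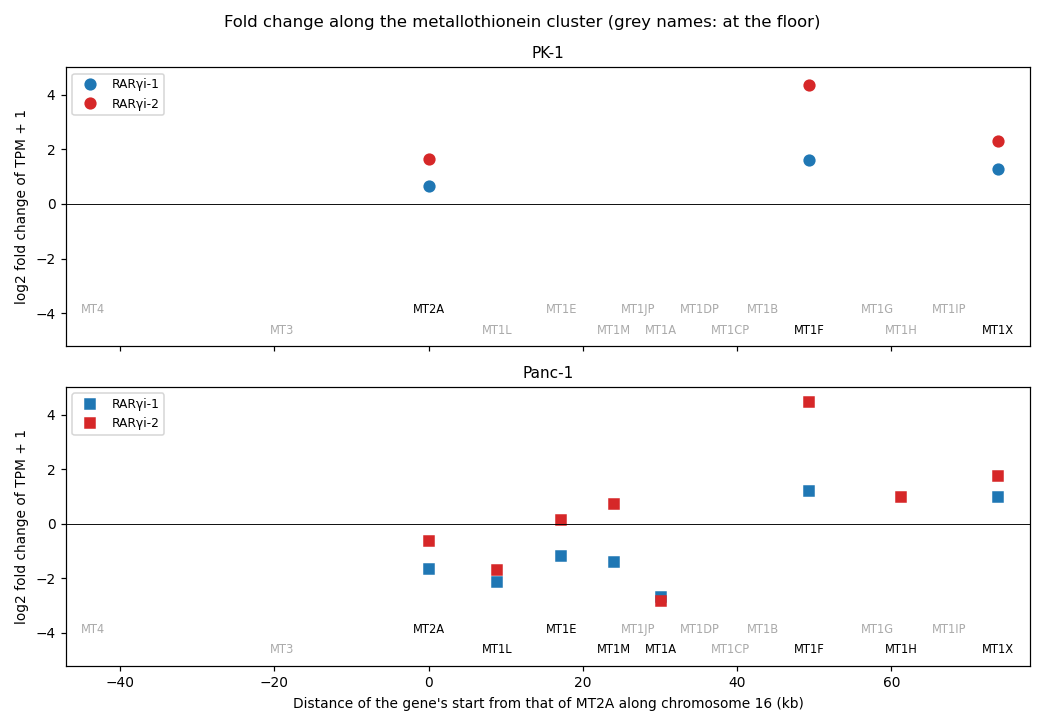
Log2 fold change of (TPM + 1) of the metallothionein entries against the distance in kb of the lower end of each gene from that of MT2A on chromosome 16, for PK-1 above and Panc-1 below; blue is RARγi-1 and red RARγi-2. Names in grey are at the floor in every library of the line. All PK-1 points lie above 0, while in Panc-1 the RARγi-1 points lie below 0 from MT2A to MT1A and above 0 for MT1F and MT1X.

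All metallothionein entries above the floor together came to 2412 TPM in the PK-1 control, 4039.9 TPM under RARγi-1 and 8117 TPM under RARγi-2. In Panc-1 they came to 4614 TPM in the control, 1589 TPM under RARγi-1 and 3222 TPM under RARγi-2. The summed level was thus 1.67 and 3.37 times the control in PK-1, and 0.344 and 0.698 times the control in Panc-1. MT2A made up 89.8% of the sum in the PK-1 control and 72.8% in the Panc-1 control, and so carried most of its direction. In Panc-1 the share of MT1X went from 2.11% in the control to 12.1% with RARγi-1 and 10.3% with RARγi-2.

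**Figure D4:**
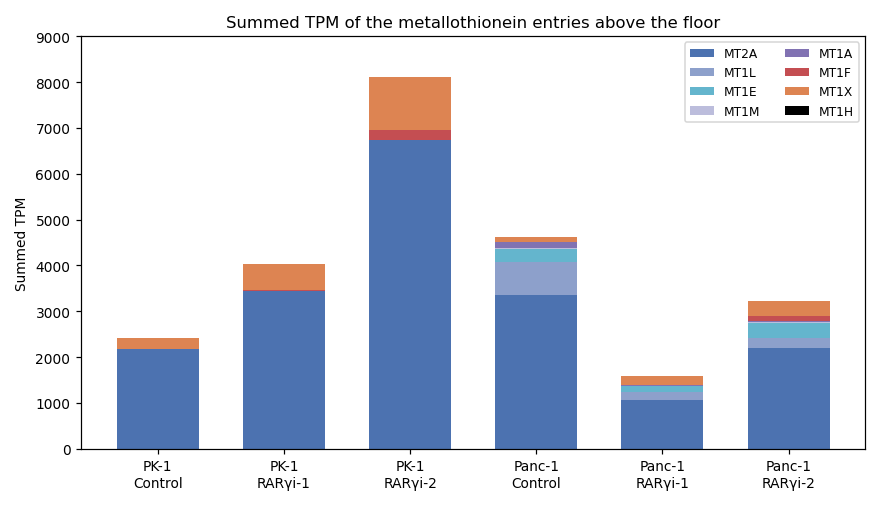
Summed TPM of the metallothionein entries above the floor in each of the 6 libraries, stacked by gene on a linear axis that starts at 0. MT2A is the largest part of every bar; the PK-1 bars grow from 2412 TPM to 8117 TPM, and both treated Panc-1 bars stay below their control of 4614 TPM.

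Metallothionein genes resemble each other, so reads could be split between copies in a way that depends on the counting, which is not described in the sources used here. In the longest spliced transcripts of GENCODE 29, between 3.59% (MT1F) and 14.3% (MT1G) of the windows of 50 bases also occurred in a transcript of another gene, for the members other than MT1X. None of their windows of 100 bases did. In MT1X, 55.8% of the windows of 50 bases and 50.8% of those of 100 bases were shared with 1 other annotated entry, AC026461.1. The read length is not given in the sources used here, and how the reads were split was not tested.

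MTF1 (4520; chromosome 1, 37809574 to 37859592), the transcription factor that switches on metallothionein genes, was at a low level in every library. It measured 7.66 TPM in the PK-1 control, 13.6 TPM under RARγi-1 and 14.4 TPM under RARγi-2. In Panc-1 it measured 8.70 TPM in the control, 13.0 TPM under RARγi-1 and 17.1 TPM under RARγi-2. All 4 treated libraries were above their control by less than 2-fold, with log2 fold changes of 0.76 and 0.83 for PK-1 against 0.53 and 0.90 for Panc-1. Each was past the fold change spread and lay between the percentiles 78.3 and 89.8 of all entries. MTF1 acts by zinc binding and by entry into the nucleus, which RNA levels do not show.

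SLC30A1 (7779; chromosome 1, 211571568 to 211579161) encodes the zinc exporter of the cell membrane, also named ZnT1. It measured 17.0 TPM in the PK-1 control, 29.05 TPM under RARγi-1 and 42.6 TPM under RARγi-2. In Panc-1 it measured 7.40 TPM in the control, 11.3 TPM under RARγi-1 and 37.7 TPM under RARγi-2. The order was the same in both lines as for MT1F and MT1X, with the control lowest and RARγi-2 highest. The log2 fold changes were 0.74 and 1.27 for PK-1 against 0.55 and 2.20 for Panc-1. The promoter printed above holds a single match, of the TGCACNC form on the opposite strand, 43 to 49 bases before the start.

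SLC39A10 (57181; chromosome 2, 195613029 to 195737700) encodes a zinc importer of the cell membrane, also named ZIP10, and its values ran the other way. It measured 13.5 TPM in the PK-1 control, 4.31 TPM under RARγi-1 and 1.17 TPM under RARγi-2, the last just above the floor. In Panc-1 it measured 12.4 TPM in the control, 4.58 TPM under RARγi-1 and 3.37 TPM under RARγi-2. It was the only member lower than control in all 4 comparisons. The log2 fold changes were -1.45 and -2.74 for PK-1 against -1.26 and -1.62 for Panc-1, at the percentiles 1.99, 1.10, 3.71 and 4.53 of all entries. The value for RARγi-2 in PK-1 depends on the pseudocount, at -3.53 without a pseudocount and -1.98 with 3 TPM.

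The other members of both transporter families put these values in context. Among the other 9 SLC30 genes, of a family whose products mostly move zinc out of the cytosol, PK-1 had 5 above the floor and Panc-1 had 7. In PK-1 none of these was more than 2-fold higher with RARγi-1, against 9.25% of all entries. SLC30A4 and SLC30A7 were with RARγi-2, against 12.1%. SLC30A4 was near the floor, at 1.13 TPM in the control and 3.40 TPM under RARγi-2, and with a pseudocount of 3 TPM its log2 fold change went from 1.05 to 0.63, short of 2-fold. In Panc-1 no gene passed this limit with RARγi-1, against 7.4% of all entries. SLC30A2 did with RARγi-2, from the floor in the control to 7.18 TPM, against 8.5%. None was more than 2-fold lower in any comparison. The lower share of all entries ranged from 4.96% (RARγi-1, PK-1) up to 12.6% (RARγi-2, PK-1). With only 5 and 7 genes, a lack of lower ones does not set the family apart from such shares. SLC30A7, which loads zinc into the Golgi, measured 12.1 TPM in the PK-1 control, 23.3 TPM under RARγi-1 and 33.0 TPM under RARγi-2. The median log2 fold changes of the SLC30 genes above the floor were 0.42 and 0.79 for PK-1 against 0.42 and 0.52 for Panc-1.

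Among the other 13 SLC39 genes, whose products move zinc into the cytosol, 10 were above the floor in the PK-1 comparisons and 9 in the Panc-1 comparisons. In PK-1, SLC39A13 was more than 2-fold higher with both inhibitors, with log2 fold changes of 1.27 and 1.55, and SLC39A7 was with RARγi-2. These are 1 of 10 genes against 9.25% of all entries, and 2 of 10 against 12.1%. SLC39A14, at 0.99 with RARγi-2, also passed 2-fold after rescaling, at 1.02. SLC39A8, a carrier of zinc, manganese and cadmium, was more than 2-fold lower with both, from 11.8 TPM to 4.24 TPM and 3.34 TPM, and was at the floor in Panc-1. SLC39A1 was also more than 2-fold lower, at -1.03, with RARγi-2, so that 1 of 10 and 2 of 10 genes were lower, against 4.96% and 12.6% of all entries. In Panc-1 none passed 2-fold with RARγi-1, against 7.4% of all entries higher and 6.03% lower. With RARγi-2, SLC39A7 and SLC39A14 were higher and SLC39A4 was lower, at -1.29. This is 2 and 1 of 9 genes against 8.5% and 11.2% of all entries.

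SLC39A7, which releases zinc from the endoplasmic reticulum, measured 113 TPM in the PK-1 control, 223 TPM under RARγi-1 and 327 TPM under RARγi-2. In Panc-1 it measured 159 TPM, 311 TPM and 500.0 TPM in the same order. Its log2 fold changes were 0.97 and 1.52 for PK-1 against 0.96 and 1.65 for Panc-1. The SLC39 genes thus differed in direction: SLC39A10 was lower and SLC39A7 higher in all 4 comparisons. Over those other SLC39 genes that passed the floor, 10 of PK-1 and 9 of Panc-1, the medians were 0.15 and 0.23 for PK-1 against 0.07 and 0.09 for Panc-1.

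**Figure D5:**
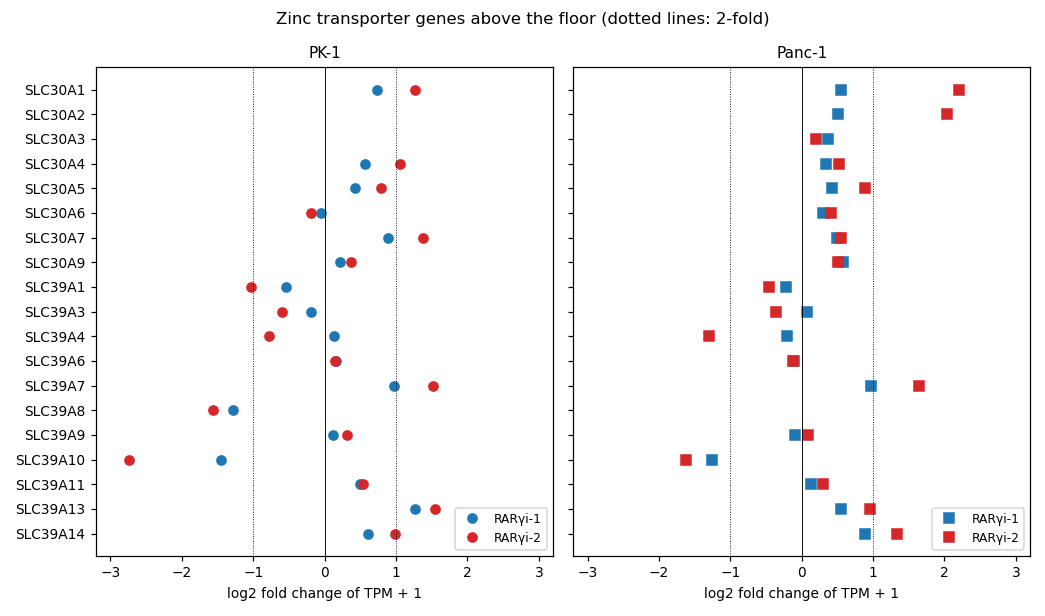
Log2 fold change of (TPM + 1) of the SLC30 and SLC39 zinc transporter genes above the floor, for PK-1 on the left and Panc-1 on the right. Blue is RARγi-1, red RARγi-2, and the dotted lines mark 2-fold. SLC39A10 lies past 2-fold on the lower side at all 4 points, and SLC39A7 lies on the higher side at all 4, past 2-fold with RARγi-2.

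The entries whose 4 log2 fold changes were most like those of these genes were taken from the 8126 entries that reached 10 TPM somewhere in each line, by the root mean square distance over the 4 comparisons. For SLC39A10 they were OIP5, KIF18A and TMEM109, at distances of 0.04, 0.07 and 0.07 (log2). OIP5 and KIF18A are genes of chromosome segregation. For SLC30A1 they were EAF2, SRPRB and HSP90B1, the last an endoplasmic reticulum chaperone gene, at distances from 0.25 to 0.27. For the median of the metallothionein members they were MAFK, MXD4 and TRIB1, at the larger distances of 0.48, 0.53 and 0.62. None of these 3 was more than 2-fold lower with RARγi-1 in Panc-1, where the metallothionein median was -1.18: MAFK had -0.37, MXD4 -0.25 and TRIB1 0.04. The median profile joins different genes, with MT1X setting both PK-1 values and MT1E and MT1M those of Panc-1. No metallothionein by itself had this profile, so the larger distances do not describe any single gene.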

How the data were processed

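A stranded mRNA kit was used for the 6 libraries. The deposited table of each library holds log2 TPM per Entrez gene, and since the lowest value is 0 in every table, the authors appear to have set anything under 1 TPM to 1 TPM. Per the labels the genome build is hg38. The aligner, counter and annotation are not given in the sources used here.

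TPM was recovered as a power of 2, and fold changes were taken with a pseudocount of 1 TPM in Python 3.11.15 (pandas 2.3.3, numpy 2.4.6). Entries above the floor in either library of a comparison were the background. The treated libraries of a line gave the spread, from the median absolute deviation of their log2 difference times 1.4826, over entries of at least 5 TPM. With 1 library per condition, no test was run. The code for the fold changes was tested on simulated data with known folds. Alternatives were no pseudocount or 3 TPM, median-ratio rescaling over 11269 entries, limits of 1.5-fold and 3-fold, and a minimum of 5 TPM.

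All 9 members are named. The members and lists were chosen with earlier results of these data known. From the lists (other metallothioneins and their pseudogenes, other SLC30 and SLC39 genes, copper handling genes, glucocorticoid targets, cell markers), genes past 2-fold in both comparisons of a line were named, with up to 4 more; the 3 entries nearest in profile to each of the metallothionein median, SLC30A1 and SLC39A10 were also named. MT1H, MT3, MT4, MT1HL1, SLC30A2, SLC30A4, SLC30A7, SLC39A1, SLC39A4, SLC39A7, SLC39A14, FKBP5, ZBTB16, CDH2, ZEB1 and the epithelial markers were named after their values were seen. The metallothionein sums and the division of the cluster were also chosen after values were seen.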

Additional observations from a re-analysis of the deposited data

Results flagged for a closer look

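MT2A was higher than control in both treated PK-1 libraries and lower than control in both treated Panc-1 libraries. Its mean log2 fold change was 1.15 in PK-1 and -1.13 in Panc-1, a difference of 2.28. The difference between the lines was not tested, and each mean is over 2 comparisons that share a control library.

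SLC31A2, a copper transporter gene of the copper handling list, was higher in both treated PK-1 libraries, from 12.8 TPM to 29.8 TPM and 42.4 TPM. In Panc-1 it went from 7.08 TPM to 6.23 TPM and 6.35 TPM. The mean log2 fold changes of 1.40 and -0.15 differ by 1.55, which was not tested; the Panc-1 values are within the fold change spread.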

How the results depend on the processing

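Each of the 28 fold changes of members above the floor kept its direction without a pseudocount, with a pseudocount of 3 TPM and after rescaling by median ratios. Rescaling moved none of them by more than 0.13 (log2). With a pseudocount of 3 TPM, 1 of the 28 crossed 2-fold, MT1F with RARγi-1 in Panc-1, and the other settings of scale moved no member across it. Without a pseudocount 3 of the 28, and with 3 TPM 6 of the 28, moved by more than the spread per library. This spread was 0.29 for PK-1 and 0.23 for Panc-1 (log2), smaller than the fold change spread. The number of metallothionein members higher than the limit with RARγi-1 in Panc-1 was accordingly 0 in place of 1 with a pseudocount of 3 TPM, 0 with a limit of 3-fold and 2 with a limit of 1.5-fold. With RARγi-1 in PK-1 it was 1 in place of 2 with a limit of 3-fold. With a limit of 1.5-fold it was 3 in place of 2 with RARγi-1 in PK-1 and with RARγi-2 in Panc-1. The shares of all entries past 1.5-fold and 3-fold are not given here, so counts at those limits have no background beside them. The other counts of metallothionein members higher than the limit kept their value, and their medians moved by less than the spread per library. A minimum of 5 TPM left the same members. The fold of the summed metallothionein TPM after rescaling was 1.53 and 3.45 for PK-1 against 0.321 and 0.703 for Panc-1, an alternative chosen after seeing the data. With 1 library per condition, no library could be left out, and the unknown depth limits what can be said of genes near the floor.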

Other observations

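Copper also binds to metallothioneins, and of 10 copper handling genes all 10 passed the floor in both lines. SLC31A1, the main copper importer of the cell membrane, was higher in all 4 comparisons, with log2 fold changes of 1.12 and 1.47 for PK-1 against 1.69 and 1.93 for Panc-1. It measured 34.4 TPM in the PK-1 control, 75.9 TPM under RARγi-1 and 97.1 TPM under RARγi-2. In Panc-1 it measured 14.7 TPM, 49.9 TPM and 59.1 TPM in the same order. After rescaling by median ratios, SLC31A1 with RARγi-1 in PK-1 was at 0.99, short of 2-fold, and the number of copper genes more than 2-fold higher there was 1 in place of 2, against 9.25% of all entries. With RARγi-2 in PK-1 it was 3, against 12.1%. In Panc-1 it was 1 of 10 with either inhibitor, close to the 7.4% and 8.5% of all entries. The number more than 2-fold lower was 1 of 10 with RARγi-2 in Panc-1, close to the 11.2% of all entries. It was 0 in the other comparisons, against 4.96% and 12.6% in PK-1 and 6.03% with RARγi-1 in Panc-1. The medians of the list were 0.50 and 0.28 for PK-1 against -0.17 and -0.23 for Panc-1.

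Glucocorticoids are another known inducer of metallothionein genes, and 8 of their targets were followed. PK-1 had 6 of them above the floor and Panc-1 had 7. In PK-1, 4 were more than 2-fold higher after RARγi-1 and 5 after RARγi-2; Panc-1 had 3 and 4. The shares of all entries were 9.25%, 12.1%, 7.4% and 8.5% in the same order. With a pseudocount of 3 TPM these counts were 3, 4, 3 and 3, without a pseudocount the last was 5, and after rescaling the first was 3. KLF9, at no more than 3.98 TPM in any library, and PER1 account for these shifts. DUSP1, a phosphatase of MAP kinases, had log2 fold changes of 1.49 and 3.34 for PK-1 against 1.19 and 1.63 for Panc-1. ERRFI1, an inhibitor of the EGF receptor, had 2.18 and 1.71 for PK-1 against 1.28 and 1.34 for Panc-1. TSC22D3, also named GILZ, had 0.66 and 1.19 for PK-1 against 1.82 and 2.17 for Panc-1. The clock gene PER1 had 1.25 and 1.21 for PK-1 against 0.53 and 1.01 for Panc-1, and KLF9 had 1.09, 1.18, 0.53 and 0.92 in the same order. SGK1, a kinase gene, was the 1 target of 7 more than 2-fold lower in Panc-1, at -1.69 and -1.63, against 6.03% and 11.2% of all entries, and had -0.05 and -0.22 in PK-1. FKBP5 was at the floor in PK-1 and had -0.11 and -0.73 in Panc-1, and ZBTB16 was at the floor throughout.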
